A study of Homo sapiens and Mus musculus with 8 samples.

Results

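Neutrophils from mouse immune cells sorted out of human ovarian tumor xenografts were compared between barcode libraries 1 and 3 and barcode libraries 2 and 4. The neutrophils were chosen by their measured values: a barcode was kept with 1449 to 46340 UMIs (unique molecular identifiers, each standing for 1 captured transcript), 725 to 5792 genes and under 15% mitochondrial UMIs, and was selected on S100a8 plus S100a9 at 30 or more and C1qa, C1qb and C1qc together under 20 UMIs per 10000. Of 33428 barcodes, 26658 lay within the limits and 14332 passed the neutrophil gate. The files number the libraries 1 to 4 at the end of each barcode, but do not tie a number to a tumor. The labels list the tumors in the order sgGAL4, sgATG9A, sgGAL4, sgATG9A, so the order alone would place sgGAL4 tumors in libraries 1 and 3. That match is an inference from order, no library is given a guide here, and no difference below is attributed to loss of ATG9A. The split into these pairs was itself given with earlier results of these data known. Each p-value sets the difference between the pairs against the spread of the libraries within them, under that split. It takes no account of how the split was chosen.

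Neutrophils are short-lived granulocytes made in the bone marrow. They carry antimicrobial proteins in granules that are filled in a fixed order during maturation, migrate to tissue along chemokine gradients and hold little RNA compared with macrophages. S100a8 and S100a9 encode the calcium-binding pair calprotectin, the dominant cytosolic protein of these cells. Macrophages in the same tumors are marked by the complement C1q genes, which is why those genes bound the gate.

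The tumors came from SKOV3, a human ovarian cancer cell line, carrying either the control guide sgGAL4 or the guide sgATG9A against the autophagy gene ATG9A, and grew under the skin of NSG mice aged 6 to 8 weeks, a strain without functional T, B and NK cells. The labels give 2 sgGAL4 and 2 sgATG9A tumor samples. They describe injections of trastuzumab, an antibody against HER2, or of human IgG at 10 mg/kg, and a diet with the CSF1R inhibitor PLX5622 at 1200 ppm, whereas the study's text describes the sequenced tumors as treated with trastuzumab and does not say that they received the inhibitor. Each library pooled tumors of several mice, and live CD45+ cells were sorted before droplet capture, so differences between mice within a library are not visible.

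The libraries held 7552 to 9618 barcodes, and the neutrophil gate held 12015534 UMIs in library 1, 25380869 in library 2, 5876201 in library 3 and 22016873 in library 4. A neutrophil barcode held a median of 3173, 4218, 3031 and 4063 UMIs in libraries 1 to 4, against 14523 to 20069 in macrophage barcodes, which were defined by C1q at 20 or more and S100a8 plus S100a9 under 30 UMIs per 10000. Between 10 and 29 barcode sequences were shared by any 2 libraries, and 1 to 5 of them were neutrophil barcodes on both sides. Summed neutrophil profiles correlated across genes at r = 0.983 between libraries 1 and 3, 0.980 between libraries 2 and 4, and 0.971 to 0.980 across the pairs, where genes are not independent replicates.

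Neutrophils made up a larger share of the barcodes in libraries 2 and 4. They were 43.7% of kept barcodes in library 1 (95% exact binomial interval 42.6 to 44.9), 29.4% in library 3 (28.2 to 30.6), 71.4% in library 2 (70.3 to 72.4) and 66.6% in library 4 (65.5 to 67.8). Macrophage barcodes ran the other way, at 29.4% and 46.7% in libraries 1 and 3 against 6.502% and 5.41% in libraries 2 and 4. The pairs did not overlap in either share, but libraries 1 and 3 also differed from each other by more than their counting intervals. Because the gate is the rule that chose the cells, the shares are a description with no test, and the intervals cover counting error only. At the edge of the gate, 31 to 110 barcodes per library lay within 5 UMIs per 10000 above the S100 limit and 30 to 136 within 5 below it, and 26 to 43 lay within 5 below the C1q limit against 15 to 32 above it.

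**Figure D1:**
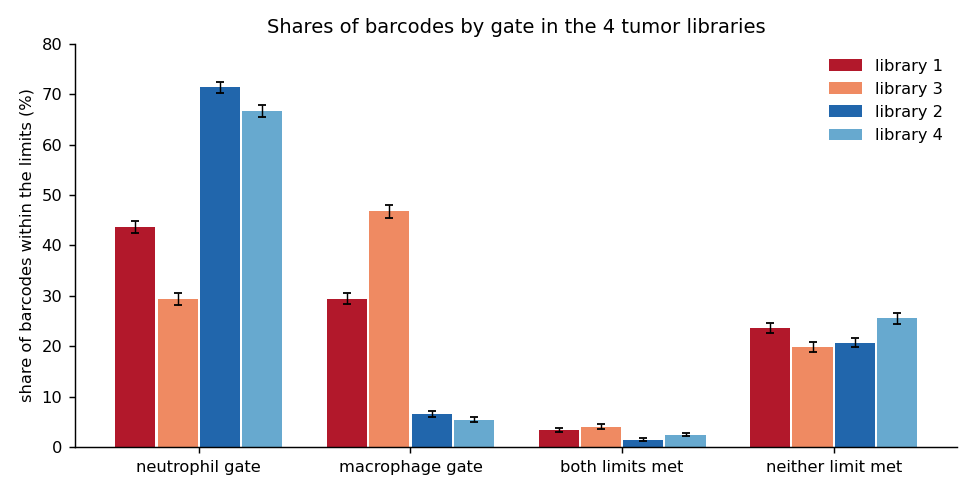
Share of barcodes within the limits (vertical axis, percent) that passed the neutrophil gate, the macrophage gate, both limits or neither, by library; bars are shares and whiskers 95% exact binomial intervals. Neutrophils were 43.7% and 29.4% in libraries 1 and 3 and 71.4% and 66.6% in libraries 2 and 4.

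Neutrophil markers that the gate did not use were present in all 4 libraries. Hdc, which encodes histidine decarboxylase, stood at 17.8, 20.9, 19.04 and 22.4 UMIs per 10000 in libraries 1 to 4, against 0.477 and 1.63 in the macrophage barcodes of libraries 1 and 4. Csf3r, the receptor for granulocyte colony-stimulating factor, stood at 8.78, 7.95, 12.6 and 12.8. Cxcr2, the chemokine receptor that draws neutrophils into tissue, stood at 3.73, 3.65, 5.08 and 5.43 and had a UMI in 57.4 to 74.5% of neutrophil barcodes against 4.33 to 17.7% of macrophage barcodes. After each barcode was thinned to 1449 UMIs, these shares were 35.7 to 47.3% and 0.935 to 4.64%. Ly6g, the classical surface marker, had a UMI in only 9.35 to 10.7% of neutrophil barcodes, and in 0.0 to 0.514% of macrophage barcodes. Cd14, which the study's methods used to keep macrophages, was high in these barcodes too, at 69.8, 92.0, 61.7 and 64.4 UMIs per 10000. The gate genes themselves, given as values only, were S100a8 at 118.8, 145.0, 110.2 and 189.3 and S100a9 at 317, 346, 309 and 354 UMIs per 10000 in libraries 1 to 4.

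Genes of macrophages were found at low levels in the neutrophil barcodes and more so in libraries 1 and 3. A list of 16 macrophage genes without the C1q genes summed to 19.04 and 11.9 UMIs per 10000 in the neutrophils of libraries 1 and 3, against 4.97 and 7.35 in libraries 2 and 4. These are 8.10, 7.12, 2.04 and 3.62% of the level in macrophage barcodes of libraries 1, 3, 2 and 4. The UMIs of this list were not spread evenly over barcodes. In each library, 44.2 to 76.5% of them sat in the few barcodes with 20 or more of these UMIs per 10000, a limit chosen after the values were seen. There were 269 such barcodes in library 1 (8.47% of its neutrophils, 95% interval 7.52 to 9.49), 144 in library 3 (8.62%, 7.32 to 10.1), 133 in library 2 (2.54%, 2.13 to 3.00) and 148 in library 4 (3.48%, 2.95 to 4.08).

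Those 694 barcodes, 4.84% of the gate, held transcripts of both cell types, as the gate and the list limit require. Their macrophage list stood at 96.1, 65.2, 55.9 and 74.7 UMIs per 10000 in libraries 1 to 4, against 167 to 244 in macrophage barcodes. The other 10 neutrophil markers summed to 40.7, 58.6, 54.6 and 70.4, against 81.4 to 121 in the rest of the gate and 1.91 to 7.74 in macrophage barcodes. Their median depth was 3662, 4461, 3664 and 5132 UMIs, slightly above the rest of the gate. Without them the macrophage list fell to 5.27, 2.87, 4.86 and 2.87 UMIs per 10000 in libraries 1 to 4, which are 2.24, 1.18, 2.90 and 1.42% of the macrophage level. These barcodes were chosen by this list, so its high level in them and its fall without them are fixed by the choice. No doublet caller was run, and doublets, mixed droplets and cells with both programs cannot be told apart here.

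Over all neutrophil barcodes, 163 of 13835 genes tested (1.18%) were higher in libraries 1 and 3 and 8 (0.0578%) were higher in libraries 2 and 4, together 1.24%, by edgeR's quasi-likelihood test on UMIs summed per library with a Benjamini-Hochberg adjusted p under 0.05. All 171 changed more than 2-fold. The median log2 fold change over all genes, libraries 2 and 4 against 1 and 3, was 0.01. With 2 libraries on each side the test is coarse. Counts were simulated at these depths with the same spread between libraries for every gene (dispersion 0.0564). There the test found 84 of the 100 genes given a 4-fold change but 15 of the 100 given a 2-fold change. Genes with a wider spread were not simulated, so these rates do not describe them.

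Most of edgeR's calls were lost when the 694 barcodes high in macrophage genes were left out. Without them edgeR called 1 of 13149 genes (0.00761%), Sash1, which was higher in libraries 1 and 3, and 886 genes had an unadjusted p under 0.05. DESeq2 on the same remaining barcodes called 61 genes higher in libraries 1 and 3 and 10 higher in libraries 2 and 4. Among them were 47 of the 163 and 7 of the 8, so the loss of calls differed between the methods. The size of the differences moved less than the calls. Over the 154 genes higher in libraries 1 and 3 that were tested both ways, the median log2 fold change went from -2.0 to -1.57. Of these, 145 (94.2%) still did not overlap between the pairs, against 13.3% of all genes that way. Members of the 16-gene macrophage list that chose these barcodes are among the 154, and their part of the move in the median is fixed by the choice. Other genes high in macrophage barcodes can fall along with the list, as Myo1e did in library 1 (1.08 to 0.248 UMIs per 10000). Their part of the move is therefore no independent check. The 8 genes higher in libraries 2 and 4 had a median of 1.61 with these barcodes and 1.48 without. None of the 8 overlapped, whereas 16.1% of all genes were higher in libraries 2 and 4 without overlap. Genes of both groups were called for differing between these same pairs on largely the same barcodes. Their lack of overlap is therefore close to fixed by that choice and is no separate evidence.

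The genes higher in libraries 1 and 3 were mostly genes of macrophages. Of the 163, 149 (91.4%) were at a higher level in macrophage than in neutrophil barcodes in every library, against 54.0% of all genes tested. A share of the macrophage profile equal to that of the 16-gene list would make up over 50% of the neutrophil level in libraries 1 and 3 for 100 of the 163 (61.3%), against 10.8% of all genes, and under 20% for 25 of them (15.3%), against 64.2% of all genes. Of the 16 list genes, 8 are among the 163, so their part of these counts is fixed by the choice of list. For some genes the estimate exceeded the measured level, such as Trem2 (160 and 113% in libraries 1 and 3). For all 8 genes higher in libraries 2 and 4 the macrophage share would make up under 20%. When that share was subtracted before the fit, edgeR called 26 genes higher in libraries 1 and 3, 25 of them among the 163, and 4 higher in libraries 2 and 4, none of them among the 8. How much of each difference comes from neutrophils was not tested.

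**Figure D2:**
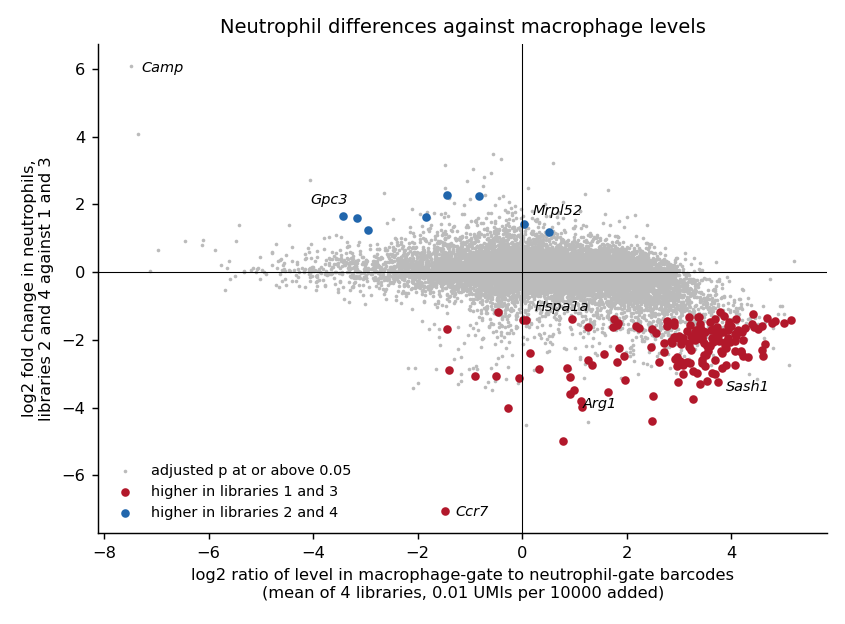
Each point is 1 of 13835 genes: the horizontal axis gives the log2 ratio of its level in macrophage barcodes to that in neutrophil barcodes, and the vertical axis its log2 fold change in neutrophils, libraries 2 and 4 against 1 and 3. Most of the 163 genes higher in libraries 1 and 3 (red) lie far to the right, where macrophage levels exceed neutrophil levels, and the 8 higher in libraries 2 and 4 (blue) lie near or left of the centre.

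Sash1, a signaling scaffold gene on chr10:8597917-8761989 (GRCm39, minus strand), had the lowest log2 fold change among well-detected genes. It stood at 0.741 and 0.751 UMIs per 10000 in libraries 1 and 3 and at 0.0741 and 0.115 in libraries 2 and 4. The pairs lay far apart, with a 7.87-fold higher level in libraries 1 and 3 (log2 fold change -2.98 ± 0.24 SE, edgeR adjusted p = 0.00208). It had a UMI in 4.66 and 4.91% of neutrophil barcodes in libraries 1 and 3 and in 1.22 and 1.69% in libraries 2 and 4, against 66.4 to 90.2% of macrophage barcodes. Without the barcodes high in macrophage genes it stood at 0.317, 0.355, 0.0383 and 0.0426 in libraries 1, 3, 2 and 4, a log2 fold change of -3.09 (adjusted p = 0.0106). Its macrophage level was similar in all libraries, at 5.73, 4.93, 5.34 and 5.18 in libraries 1 to 4.

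The next genes in that order behaved alike. Myo1e, a membrane-linked myosin gene, stood at 1.08 and 1.02 UMIs per 10000 in libraries 1 and 3 and at 0.187 and 0.173 in libraries 2 and 4 (5.63-fold, edgeR adjusted p = 0.00466). Ifi207, an interferon-inducible gene, stood at 0.729 and 0.608 against 0.0938 and 0.164. Cd83, a surface glycoprotein of activated antigen-presenting cells, stood at 0.577 and 0.602 against 0.114 and 0.106. In each of the 3 the lower library of the 1 and 3 pair was over 3 times the higher library of the other. Ext1 (heparan sulfate synthesis) stood at 1.01 and 1.36 against 0.174 and 0.288, Dab2 (an endocytic adaptor) at 0.683 and 0.885 against 0.112 and 0.198, and Fn1 (fibronectin) at 0.912 and 1.15 against 0.179 and 0.325. Slc8a1 (a sodium-calcium exchanger) and Lgals1 (galectin-1) were 3.36-fold and 3.11-fold higher in libraries 1 and 3. Without the barcodes high in macrophage genes, these genes other than Sash1 had adjusted p-values of 0.129 to 0.455, and Slc8a1 in library 1 (0.307) came close to library 4 (0.297).

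**Figure D3:**
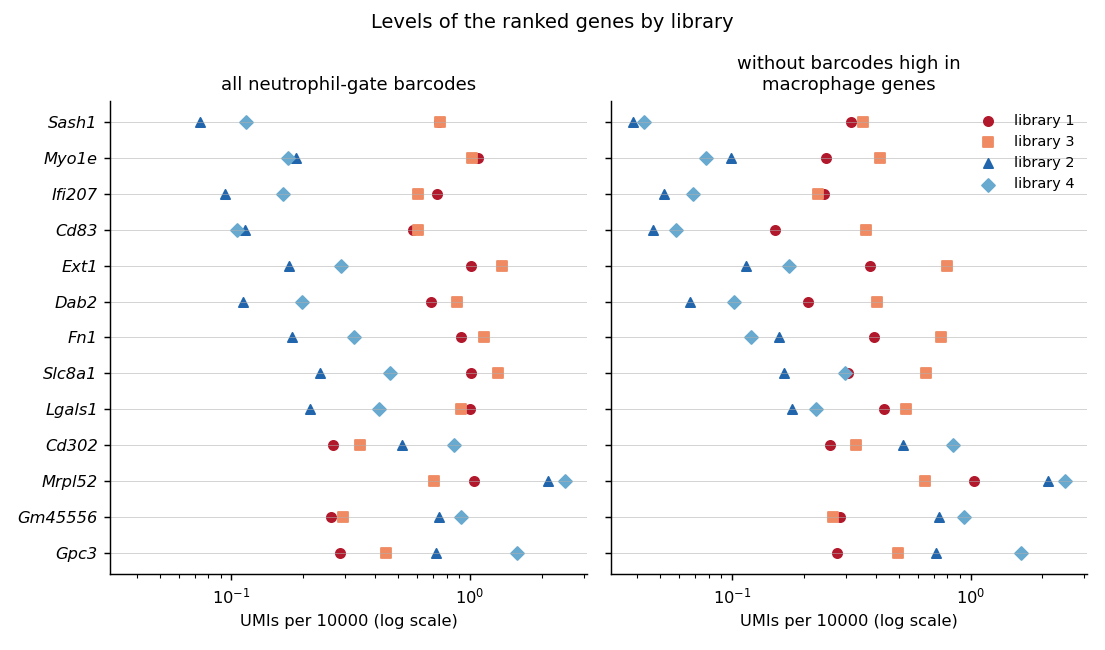
Level of 9 genes with low and 4 with high log2 fold changes among well-detected called genes, in UMIs per 10000 on a log axis, by library; the left panel shows all neutrophil barcodes and the right panel those under 20 macrophage-list UMIs per 10000. The genes in the upper 9 rows shift left in the right panel while the 4 lowest rows hardly move. The barcodes left out were chosen by macrophage genes, so a fall of genes high in macrophage barcodes follows in part from that choice.

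Typical macrophage genes were among the calls. Mrc1, the mannose receptor, stood at 0.405 and 0.424 UMIs per 10000 in libraries 1 and 3 and at 0.0469 and 0.0836 in libraries 2 and 4 (6.39-fold, edgeR adjusted p = 0.00466), with a UMI in 3.59, 3.05, 0.859 and 1.18% of barcodes in libraries 1, 3, 2 and 4. Pf4, a chemokine gene of platelets and resident macrophages, stood at 0.385 and 0.415 against 0.0563 and 0.0595. Mertk, a receptor for the uptake of dying cells, stood at 0.142 and 0.160 against 0.0154 and 0.0154, and Trem2, a lipid receptor, at 0.300 and 0.425 against 0.0914 and 0.149. In all 4 genes the pairs were apart. These 4 genes belong to the 16-gene list that chose the barcodes high in macrophage genes, so their values without those barcodes are fixed by that choice and are not given. Of the 24 genes in the macrophage marker list, 9 of 21 tested were higher in libraries 1 and 3, against 1.18% of all genes, with a list median of -1.36. The list's summed level was 39.9 and 33.3 UMIs per 10000 in libraries 1 and 3 and 20.8 and 23.03 in libraries 2 and 4. That sum includes C1qa, C1qb and C1qc, which the gate capped.

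Among the 25 calls for which the macrophage share would make up under 20% of the level, several sat in few barcodes. Mmp12, Ccr7, Flt3 and Fscn1 were chosen after their values were seen. Arg1, the arginase of alternatively activated myeloid cells, stood at 0.454 and 0.711 UMIs per 10000 in libraries 1 and 3 and at 0.0221 and 0.0858 in libraries 2 and 4 (11.2-fold, edgeR adjusted p = 0.0258). It had a UMI in 79 barcodes of library 1, 91 of library 3, 24 of library 2 and 53 of library 4, and without the barcodes high in macrophage genes it stood at 0.152, 0.207, 0.0110 and 0.0514 (adjusted p = 0.178). Mmp12, the macrophage elastase, stood at 0.171 and 0.509 against 0.0102 and 0.00954, and at 0.0226 and 0.0849 against 0.00245 and 0.00339 without those barcodes. Ccr7, the receptor that guides migratory dendritic cells to lymph nodes, had 110 UMIs in libraries 1 and 3 and 2 in libraries 2 and 4, a depth-scaled ratio of 146 (95% interval 39.4 to 1220, counting error only). All of them came from 4 barcodes in library 1, 1 barcode in library 3 and 2 in library 2. Flt3 and Fscn1, also dendritic cell genes, were 8.70-fold and 8.37-fold higher in libraries 1 and 3. A single barcode held 31 of 63 Flt3 UMIs in library 1 and 19 of 31 in library 3. For Fscn1 a single barcode held 19 of 36 UMIs in library 1 and 34 of 36 in library 3. Fscn1 had a UMI in 0.22 and 0.18% of barcodes in libraries 1 and 3, and in 0.0955 and 0.306% in libraries 2 and 4. Of the 8 dendritic cell markers, 3 of 6 tested were called, against 1.18% of all genes, with a list median of -1.91. The highest log2 fold change in the list was 0.58, and Zbtb46, another member, overlapped between the pairs (-0.74, edgeR adjusted p = 0.739). Without the barcodes high in macrophage genes Ccr7 stood at 0.113 in library 3, at 0.000816 in library 2 and at 0 in libraries 1 and 4, and Fscn1 at 0.0711 in library 3 and 0.00163 to 0.00484 in the others. Both then fell under the filter on low counts and were not tested, whereas Flt3 had a log2 fold change of -2.70 (edgeR adjusted p = 0.544). The median of the dendritic cell list, over the members still tested there, was 0.10.

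The 8 genes higher in libraries 2 and 4 were Cd302, Or52n3, Mrpl52, Gm45556, Gfi1b, Gpc3, Prss2 and Serpind1, with log2 fold changes of 1.17 to 2.28. Gpc3, a glypican that anchors heparan sulfate at the cell surface (chrX:51361303-51703137, GRCm39, minus strand), stood at 0.286 and 0.443 UMIs per 10000 in libraries 1 and 3 and at 0.719 and 1.58 in libraries 2 and 4. Library 4 was the highest, and the pairs did not overlap (log2 fold change 1.65 ± 0.30 SE, edgeR adjusted p = 0.0344). It had a UMI in 3.18, 4.73, 7.22 and 16.8% of neutrophil barcodes in libraries 1, 3, 2 and 4, and in 0.791 to 4.61% of macrophage barcodes. Thinned to 1449 UMIs, the neutrophil shares were 2.11, 3.35, 4.53 and 9.82%, and kept their order. Its level hardly moved without the barcodes high in macrophage genes, at 0.276, 0.498, 0.719 and 1.63, while the adjusted p was 0.214.

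Mrpl52, a subunit gene of the mitochondrial ribosome (chr14:54664360-54668593, plus strand), was the most widely detected of the 8. It stood at 1.04 and 0.703 UMIs per 10000 in libraries 1 and 3 and at 2.11 and 2.51 in libraries 2 and 4, a log2 fold change of 1.41 ± 0.27 SE (edgeR adjusted p = 0.0450). It had a UMI in 24.0, 17.2, 44.0 and 46.7% of barcodes in libraries 1, 3, 2 and 4, and in 12.6, 8.68, 22.7 and 25.8% after thinning. In thinned macrophage barcodes the shares were also lower in libraries 1 and 3 (15.2 and 18.7%) than in libraries 2 and 4 (19.1 and 31.6%). Cd302, a C-type lectin receptor gene, stood at 0.267 and 0.346 against 0.518 and 0.853 (adjusted p = 0.0473).

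Or52n3 and Gm45556 lie next to each other on the plus strand of chromosome 7. Or52n3, annotated as an olfactory receptor gene, spans chr7:104527238-104532113, and Gm45556, annotated as a long noncoding RNA, spans chr7:104517200-104520973. Gm45556 stood at 0.261 and 0.293 UMIs per 10000 in libraries 1 and 3 and at 0.738 and 0.916 in libraries 2 and 4 (log2 fold change 1.61 ± 0.21 SE, edgeR adjusted p = 0.0107). Or52n3 stood at 0.168 and 0.209 against 0.400 and 0.476 (1.25 ± 0.23, adjusted p = 0.0357). Both were higher in neutrophil than in macrophage barcodes: Gm45556 stood at 0.0135 and 0.104 in the macrophage barcodes of libraries 1 and 4, and Or52n3 at 0.00987 and 0.0554. Whether reads of the pair belong to a single transcript was not tested. Gfi1b, a transcription factor of the erythroid and platelet lineages, Prss2, a trypsinogen, and Serpind1, heparin cofactor II, were all under 0.13 in every library.

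Among 17 lists of neutrophil functions and cell states, 10 of 443 distinct genes tested were called, against 1.24% of all genes. All 10 were higher in libraries 1 and 3, and 1 of them, mt-Nd6, is in a list that the barcode limits used. Without the barcodes high in macrophage genes edgeR called 0 of the list genes. Each list is set beside the median of all genes (0.01) and beside the shares of all genes whose levels did not overlap, 18.6% higher in libraries 1 and 3 and 12.4% higher in libraries 2 and 4.

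**Figure D4:**
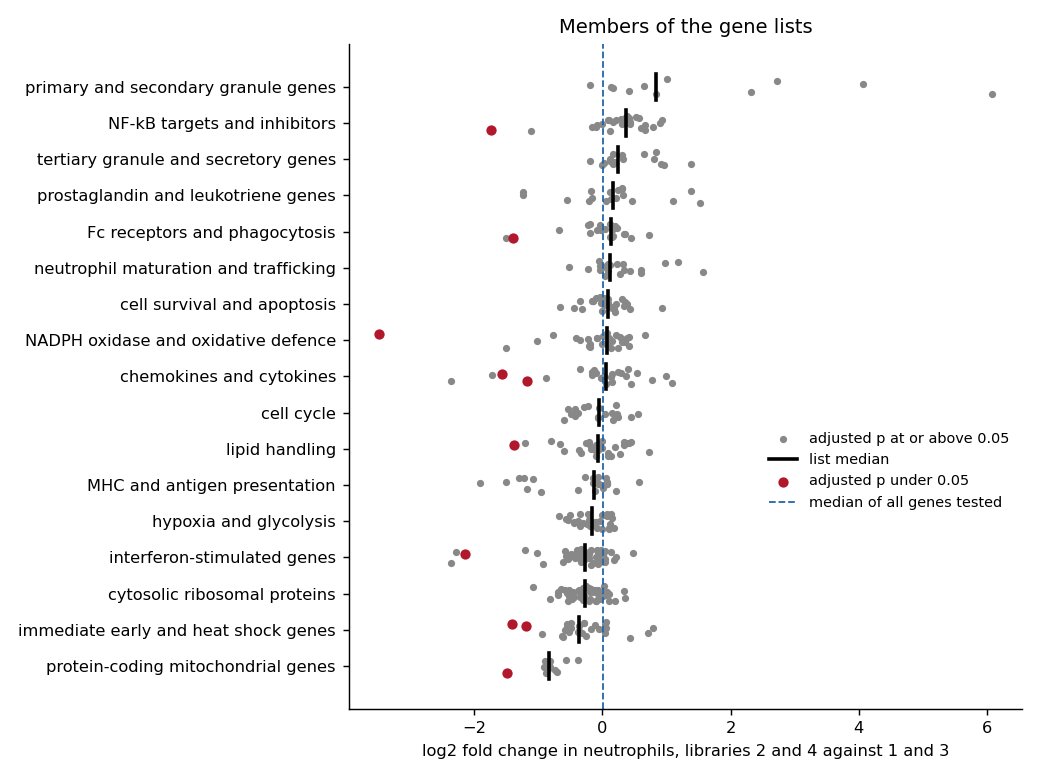
Log2 fold change in neutrophils, libraries 2 and 4 against 1 and 3, for the tested members of 17 gene lists; grey points did not pass the test, red points had an edgeR adjusted p under 0.05, black bars are list medians and the dashed line is the median of all genes. The mitochondrial list has the lowest median (-0.84) and the primary and secondary granule list the highest (0.83).

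Granule genes separated library 4 from the other 3 and not the pairs. Of 15 primary and secondary granule genes, 11 were tested, 0 were called by edgeR, 0 had levels that did not overlap between the pairs, and the list median was 0.83, or -0.23 without library 4. Camp, the cathelicidin precursor of the secondary granules, stood at 0.0899, 0.0772 and 0.109 UMIs per 10000 in libraries 1, 2 and 3 and at 14.9 in library 4. Ngp stood at 0.309, 0.299 and 0.494 against 14.5, and Ltf, lactoferrin, at 0.313, 0.279 and 0.214 against 3.64. Library 4 also had the highest Lcn2 (18.6, against 5.54 to 9.09) and the highest Cebpe, the transcription factor of granule formation (0.139, against 0.0341 to 0.0391). In library 4, 98.5% of the Camp, Ngp and Ltf UMIs sat in 5% of the barcodes, and 1 barcode held 3837 of 72772. These genes are transcribed early, in maturing neutrophils, and are low in mature ones.

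Tertiary granule and secretory genes, made late in maturation, had 0 of 16 members called and a median of 0.25, and 5 of 16 (31.2%) were higher in libraries 2 and 4 without overlap. Mmp9, gelatinase B, stood at 2.24 and 2.94 UMIs per 10000 in libraries 1 and 3 and at 3.83 and 5.31 in libraries 2 and 4. The pairs were apart, but the edgeR adjusted p was 0.182. Wfdc21 stood at 3.33 and 3.72 against 4.22 and 8.35.

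Maturation and trafficking genes had 0 of 21 members called and a median of 0.12. Siglecf, a sialic acid receptor, came closest, at 0.0957 and 0.128 UMIs per 10000 in libraries 1 and 3 and 0.194 and 0.477 in libraries 2 and 4 (edgeR adjusted p = 0.0605, and 0.284 without the barcodes high in macrophage genes). Icam1, an adhesion molecule, stood at 4.89 and 3.99 against 8.40 and 8.60 (adjusted p = 0.197).

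**Figure D5:**
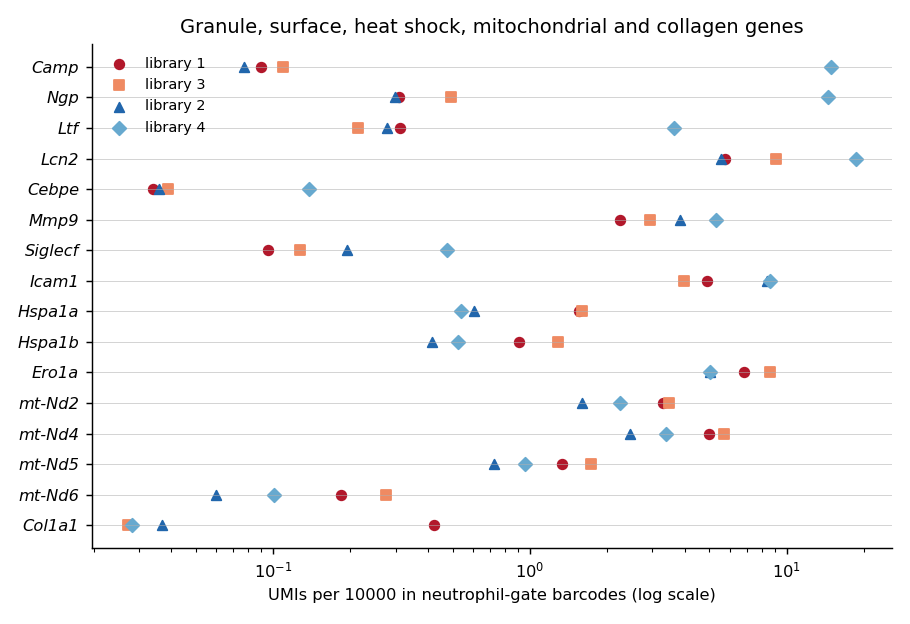
Level of granule, surface, heat shock, hypoxia-related, mitochondrial and collagen genes in neutrophil barcodes, in UMIs per 10000 on a log axis, by library. Library 4 stands alone for Camp, Ngp, Ltf and Lcn2 and library 1 for Col1a1, while the 2 heat shock genes and the mitochondrial genes are higher in libraries 1 and 3 than in 2 and 4.

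The called inflammatory mediators were genes at a higher level in macrophage barcodes, where Ccl2 stood at 10.1 UMIs per 10000 in library 1. Of the chemokine and cytokine list, 2 of 25 were called: Ccl9 at 0.346 and 0.293 UMIs per 10000 in libraries 1 and 3 against 0.0697 and 0.152 in libraries 2 and 4 (edgeR adjusted p = 0.0440), and Ccl2, which recruits monocytes, at 0.846 and 0.808 against 0.272 and 0.469 (adjusted p = 0.0473). The macrophage share would make up 96.8 and 86.3% of the Ccl2 level in libraries 1 and 3. The log2 fold change of Ccl2 turned to 1.37 (edgeR adjusted p = 0.655) with that share subtracted, and it was -0.72 (adjusted p = 0.486) without the barcodes high in macrophage genes. Il23a, a subunit of interleukin 23, stood at 2.50 and 1.84 against 5.54 and 3.16 without passing the test (adjusted p = 0.392). The list median was 0.06, and it was 0.45 without library 1, -0.38 without library 2 and 0.39 without library 4. In the list of NF-kB targets and inhibitors, Tnip3 was the 1 of 27 called, and the median was 0.36, with 8 of 27 (29.6%) higher in libraries 2 and 4 without overlap. Tnip3 stood at 0.295 and 0.334 against 0.0713 and 0.117, whereas Tnfaip2 stood at 4.11 and 3.96 against 6.31 and 7.46. The median became -0.09 without library 2, 0.11 without library 3 and 0.66 without library 4. In the prostaglandin and leukotriene list 0 of 18 were called, and Ptgs2, which encodes cyclooxygenase 2, stood at 10.5, 13.8, 10.6 and 11.1 in libraries 1 to 4. Its levels were higher in libraries 2 and 4 without overlap (edgeR adjusted p = 0.878).

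Interferon-stimulated genes leaned toward libraries 1 and 3. Of 48 tested, 28 (58.3%) were higher there without overlap, against 18.6% of all genes, and the median was -0.27. The 1 call was Ifi204, at 0.222 and 0.201 UMIs per 10000 against 0.0264 and 0.0736 (edgeR adjusted p = 0.0288). Without the barcodes high in macrophage genes, 26 of 46 (56.5%) did not overlap, against 13.3% of all genes that way and 16.1% the other way, and the median was -0.33. The median was 0.03 without library 4 and -0.60 without library 2.

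Stress and energy genes also leaned toward libraries 1 and 3. Of 31 immediate early and heat shock genes, 17 (54.8%) were higher there without overlap, the median was -0.36 and 2 were called. These were the near-identical neighbors Hspa1a and Hspa1b, whose reads can be split between them and whose values are uncertain for that reason. Hspa1a stood at 1.55 and 1.59 UMIs per 10000 in libraries 1 and 3 and 0.608 and 0.537 in libraries 2 and 4 (2.64-fold, edgeR adjusted p = 0.0344), and Hspa1b at 0.910 and 1.29 against 0.414 and 0.525 (2.29-fold, adjusted p = 0.0419). From 94.8 to 99.5% of the Hspa1a UMIs lay in 5% of the barcodes of each library. Both kept their size without the barcodes high in macrophage genes, with log2 fold changes of -1.52 and -1.24, and both had an adjusted p of 0.134 there.

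Of 32 hypoxia and glycolysis genes, 17 (53.1%) were higher in libraries 1 and 3 without overlap, 0 were called by edgeR, and the median was -0.16, or -0.25 without the barcodes high in macrophage genes. The median was -0.08 without library 1, -0.33 without library 2 and -0.08 without library 4. Ero1a, an endoplasmic reticulum oxidase induced in low oxygen, stood at 6.82 and 8.62 UMIs per 10000 in libraries 1 and 3 and 5.02 and 5.05 in libraries 2 and 4 (edgeR adjusted p = 0.565). Ddit4, a stress inhibitor of mTORC1, stood at 1.12 and 1.498 against 0.798 and 0.782 (adjusted p = 0.341). Slc2a3, a glucose transporter, stood at 2.15 and 3.46 against 1.87 and 1.94.

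Mitochondrially encoded genes had the lowest list median, -0.84. The limit of 15% mitochondrial UMIs per barcode used these genes, so their values are a description. Of the 13, 12 (92.3%) were higher in libraries 1 and 3 without overlap. mt-Nd6 stood at 0.183 and 0.274 UMIs per 10000 in libraries 1 and 3 and at 0.0599 and 0.101 in libraries 2 and 4. mt-Nd4 stood at 4.96 and 5.68 against 2.45 and 3.39. The summed list was 99.96 and 104.8 in libraries 1 and 3, 50.0 and 63.5 in libraries 2 and 4, and 333 to 377 in macrophage barcodes. Without the barcodes high in macrophage genes 10 of 13 (76.9%) did not overlap and the median was -0.66. mt-Nd6 and mt-Nd5 overlap on opposite strands, and the strand setting of the counting is not given in the sources used here. Cytosolic ribosomal protein genes had 0 of 54 called and a median of -0.27, which became -0.03 without those barcodes, -0.07 without library 1 and -0.15 without library 2.

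NADPH oxidase and oxidative defence genes had 1 of 30 called, Arg1, and a median of 0.07, or -0.20 without library 2. Hmox1, heme oxygenase 1, stood at 6.26 and 6.57 UMIs per 10000 in libraries 1 and 3 and 4.09 and 3.08 in libraries 2 and 4 (edgeR adjusted p = 0.446). Fc receptor and phagocytosis genes, of interest where an antibody is given, had 1 of 25 called and a median of 0.13. The call was Fcgr1, the high-affinity IgG receptor, at 0.473 and 0.460 against 0.121 and 0.241 (adjusted p = 0.0427, and 0.393 without the barcodes high in macrophage genes). Its level in macrophage barcodes was 5.57 in library 1 and 5.36 in library 4. Lipid handling genes had 1 of 30 called, Fabp5, a fatty acid binding protein gene, at 2.10 and 1.66 against 0.593 and 0.848 (adjusted p = 0.0324, and 0.154 without those barcodes).

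Genes of antigen presentation (24 tested), cell survival and apoptosis (29 tested) and the cell cycle (20 tested) had 0 called by edgeR, with medians of -0.12, 0.08 and -0.06. The antigen presentation median was -0.39 without library 2 and 0.04 without library 4, and the cell survival median was -0.09 without library 2. The macrophage share would make up a median of 75.3% of the level of the cell cycle genes in libraries 1 and 3, and their median log2 fold change was 0.80 with that share subtracted, 0.75 in barcodes with a Ly6g UMI and -0.42 without library 4. H2-Aa, an MHC class II gene in the 16-gene macrophage list, stood at 2.52 and 0.786 UMIs per 10000 in libraries 1 and 3 and 0.558 and 0.827 in libraries 2 and 4, so the pairs overlapped. By DESeq2, 21 distinct genes were called over all 17 lists.

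The other markers that the study displayed on these cells and that were tested did not pass the test. That does not show equal levels, since the test found few of the simulated 2-fold changes. Nos2, inducible nitric oxide synthase, stood at 0.352, 0.475, 0.664 and 0.868 UMIs per 10000 in libraries 1 to 4, with a log2 fold change of 0.42 ± 0.29 SE (edgeR adjusted p = 0.776). Il10 stood at 0.905, 0.885, 0.768 and 1.07, Tgfb1 at 1.28, 1.37, 0.904 and 1.39, and Csf1r at 0.825, 0.762, 0.907 and 1.29. Of these, Tgfb1 was higher in libraries 2 and 4 without overlap (edgeR adjusted p = 0.797), whereas Il10 and Csf1r overlapped. Csf1r is the target of PLX5622, and its level in macrophage barcodes was 4.56 in library 1 and 5.34 in library 4. Cx3cr1 stood at 0.859 and 0.994 in libraries 1 and 3 and 0.625 and 0.647 in libraries 2 and 4, apart but not past the test (adjusted p = 0.518).

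Markers of other cell types were low or unevenly held. T cell markers summed to 0.0824 to 0.156 UMIs per 10000 over the 4 libraries, B cell markers to 0.0410 to 0.127, NK cell markers to 0.0 to 0.00545 and erythroid markers to 0.00394 to 0.0153. Fibroblast markers summed to 1.21 in library 1 and to 0.0647 to 0.100 in the other 3, and Col1a1, the main collagen gene, stood at 0.424 in library 1 and at 0.0272 to 0.0370 elsewhere. Of 1301 UMIs of Col1a1, Col1a2 and Col3a1 in library 1, 877 came from 1 barcode. Monocyte markers summed to 3.099, 1.73, 3.27 and 3.801 in libraries 1 to 4. Of these 6 markers 0 were called by edgeR, and 3 (50.0%) were higher in libraries 1 and 3 without overlap, against 18.6% of all genes. The list median was -1.69, or -1.77 without the barcodes high in macrophage genes. Leaving out library 1, 2, 3 or 4 gave medians of -0.93, -0.91, -1.89 and -2.96. The highest log2 fold change in the list was 0.34. F13a1, a coagulation factor subunit gene of monocytes, stood at 0.608 and 0.739 in libraries 1 and 3 and at 0.0520 and 0.253 in libraries 2 and 4 (edgeR adjusted p = 0.187). The part of monocytes in the differences was not tested.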

How the data were processed

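Single-cell RNA was measured by the study with 10x Genomics 3' chemistry in CD45+ cells of 4 xenograft tumor libraries. The authors deposited whole-number UMI counts per gene and barcode, made per the labels with Cell Ranger 8.0.0 on mm39, whose aggregation step may have subsampled reads. The bulk counts of OVCAR-8 cells were not used here. Gene positions came from GENCODE vM39 on GRCm39, in which 33185 of 33696 gene IDs were found.

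Python 3.11.15 applied the barcode limits and the gate and summed counts per library. The members, the pairs and the gene lists were chosen with earlier results of these data known. R 4.3.3 with edgeR 4.0.16 (filterByExpr, TMM, robust quasi-likelihood fit, two-sided, Benjamini-Hochberg over 13835 genes) compared the pairs with no covariate, and S100a8, S100a9, C1qa, C1qb and C1qc were left out of the test. Fold changes without another setting named are from that fit. Levels are UMIs per 10000 neutrophil UMIs, and the macrophage share was estimated from 16 genes. Neutrophil UMI totals of 5876201 to 25380869 per library and 2 libraries per side limit the precision. Tested on simulated data of these depths over 13518 genes, all given a common dispersion, edgeR called 3 of 13318 unchanged genes. That rate holds for the simulated spread only. Intervals are exact binomial (95%) and cover counting error only. Nothing says that libraries of a pair came from the same kind of tumor.

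Genes named were the gate genes, the 10 largest changes each way among genes past the threshold whose log2 CPM averaged 5 or above (only 4 were higher in libraries 2 and 4), up to 4 of each list by p, and markers the study used. Genes given outside that rule, among them the other 4 genes higher in libraries 2 and 4 and Ngp, were chosen after their values were seen. Genes that meet the rule but are withheld are not reported here. Alternatives were DESeq2 1.42.0, RLE scaling, count filters, gates, thinning, subtraction of the macrophage share, barcodes with a Ly6g UMI and leaving out each library. Leaving out barcodes with 20 or more macrophage-list UMIs per 10000 was added after the data were seen. No doublet caller was run.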

Additional observations from a re-analysis of the deposited data

How the results depend on the processing

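The number of genes called moved with most settings, and the causes were not tested. Against 163 higher in libraries 1 and 3 and 8 higher in libraries 2 and 4, DESeq2 gave 263 and 28, no filter on low counts 478 and 97, the stricter gate (S100a8 plus S100a9 at 100 or more and no C1q UMI) 33 and 2, subtraction of the macrophage share 26 and 4, thinning to the lowest library total 98 and 4, and barcodes with a Ly6g UMI 22 and 0 (357 genes at an unadjusted p under 0.05). Without the barcodes high in macrophage genes, a setting chosen after seeing the data, the numbers were 1 and 0 by edgeR and 61 and 10 by DESeq2. RLE scaling (156 and 7) and a filter of 50 UMIs in 2 libraries (128 and 7) stayed within 1.5 times. Leaving out 1 library, with a lone sample assumed to vary like the other pair, gave 189 to 355 and 20 to 120. Without library 2 the numbers were 323 and 120, without library 3 355 and 20, and without library 4 328 and 86. Of the 163 genes, 30 were still called under the stricter gate, 25 after subtraction and 12 of 121 tested in Ly6g barcodes, and of the 8 genes, 1, 0 and 0 of 5. Against 10 list entries called, DESeq2 gave 21, no filter 35, the stricter gate 1, subtraction 1, thinning 6, Ly6g barcodes 6, leaving out the barcodes high in macrophage genes 0, and leaving out 1 library 12 to 40. Under subtraction the log2 fold change of Ccl2 turned to 1.37 and that of Ntpcr, named for this reason only, to 9.73, where the subtracted level is near 0 by construction. The neutrophil share of libraries 1, 2, 3 and 4 was 20.9, 41.4, 12.9 and 39.03% under the stricter gate, 50.3, 80.3, 34.0 and 78.5% under a looser gate, and 39.3, 65.9, 27.3 and 60.9% of all barcodes with no limits, with libraries 2 and 4 above 1 and 3 each time. No paired analysis was possible because the library numbers carry no replicate labels. Depth limits the smallest library most, with 5876201 neutrophil UMIs in library 3.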

Other observations

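In library 4, neutrophil barcodes with transcripts of secondary granules formed a small tail: Camp had a UMI in 8.52% of neutrophil barcodes there, against 2.74, 3.44 and 2.46% in libraries 1, 2 and 3, and in 4.47% against 1.26, 1.28 and 1.32% after thinning to 1449 UMIs. Macrophage barcodes of library 4 also had Camp UMIs more often (5.22%, against 0.301 to 1.05%). No test was run, since 1 library carries the difference.

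Barcodes that met both limits, C1q at 20 or more and S100a8 plus S100a9 at 30 or more UMIs per 10000, were outside the neutrophil gate and made up 3.29, 1.43, 3.997 and 2.43% of kept barcodes in libraries 1 to 4. Barcodes that met neither limit made up 23.6, 20.7, 19.9 and 25.5%, and were not analysed further. P2rx7, which encodes an ATP-gated channel and was named after its values were seen, stood at 1.05 and 1.22 UMIs per 10000 in the neutrophils of libraries 1 and 3 and 0.437 and 0.377 in libraries 2 and 4 (2.67-fold, edgeR adjusted p = 0.0344). In macrophage barcodes it stood at 0.678 and 0.625 against 1.05 and 0.780, where the order of the pairs was not the same. It was not called with the macrophage share subtracted (edgeR adjusted p = 0.085). Nor was it called without the barcodes high in macrophage genes, where edgeR called only Sash1.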
